A study of Saccharomyces cerevisiae with 12 samples.

Results

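Wild-type budding yeast that had grown again after a shock wave was compared with untreated wild-type yeast of the same series by RNA sequencing. The comparison used 4 of the 12 libraries of the series: the 2 labelled shocked and the 2 labelled untreated. All 4 came from BY4741, a laboratory haploid of mating type a, grown in medium without uracil at 30 °C and harvested at an OD600 of 0.4 to 0.5. The shocked cells had been exposed to a shock wave of 5.6 Mach before growth, and the untreated cells had received neither a shock wave nor sodium perchlorate. The series holds a further pair of wild-type libraries labelled unshocked, which the authors deposited in 1 table with the shocked ones as their control. The untreated libraries are the control of the other labelled set, in which wild type and an edc3∆lsm4∆C mutant were grown with or without 100 mM sodium perchlorate. The shock wave and the difference between these sets therefore cannot be told apart in shocked against untreated, and the values of the unshocked libraries are given beside most of the genes described.

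Each of the 6 libraries of these 3 groups held 14108937 to 18360737 reads on transcripts, of which 14.0 to 15.5% fell on its 10 most abundant transcripts. Pearson r across genes between replicates was 0.986 in untreated, 0.990 in shocked and 0.994 in unshocked. Genes are not independent replicates, and this r describes the libraries only. Shocked and untreated libraries had an r of 0.973 to 0.983 with each other, against 0.933 to 0.958 for unshocked and untreated and 0.950 to 0.968 for shocked and unshocked. The unshocked libraries thus stood farther from the untreated ones than the shocked libraries did. Replicates differed at least 2-fold in 128 genes between the untreated libraries, 81 between the shocked and 27 between the unshocked. The labels do not say whether replicates were separate cultures, and p-values here speak of the spread among these libraries alone. Values below are normalized reads, meaning reads divided by size factors computed over the 4 libraries together, and the unshocked values were placed on the same scale.

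Haploid a cells mate with alpha cells. Each cell type secretes a peptide pheromone that binds a receptor on the other, and a G protein and a kinase cascade pass the signal to the transcription factor Ste12. Ste12 is known to bind the element TGAAACA upstream of genes for agglutination, cell fusion and nuclear fusion. These genes are introduced first because AGA1, 1 of the 2 genes that passed the 4-library test described next, is among them. The 300 bases before the annotated gene start are shown for 4 of them, read from the RefSeq sequence of the R64 assembly, because copies of the element lie there. The build the authors used is not given in the sources used here. Capitals mark TGAAACA, or TGTTTCA where the element lies on the opposite strand.

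AGA1, chrXIV:703399-703698, plus strand: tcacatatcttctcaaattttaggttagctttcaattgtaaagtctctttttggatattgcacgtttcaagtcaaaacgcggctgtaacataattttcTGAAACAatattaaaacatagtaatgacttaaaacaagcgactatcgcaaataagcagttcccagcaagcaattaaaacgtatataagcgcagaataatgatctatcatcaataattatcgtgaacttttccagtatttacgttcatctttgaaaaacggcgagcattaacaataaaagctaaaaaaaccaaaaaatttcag
PRM1, chrXIV:110617-110916, plus strand: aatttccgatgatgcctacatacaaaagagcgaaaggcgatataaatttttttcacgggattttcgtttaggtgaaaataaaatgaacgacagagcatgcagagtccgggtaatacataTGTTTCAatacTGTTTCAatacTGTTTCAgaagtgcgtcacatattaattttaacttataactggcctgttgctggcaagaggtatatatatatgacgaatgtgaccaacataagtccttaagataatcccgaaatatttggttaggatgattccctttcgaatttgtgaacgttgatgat
FUS1, chrIII:71503-71802, plus strand: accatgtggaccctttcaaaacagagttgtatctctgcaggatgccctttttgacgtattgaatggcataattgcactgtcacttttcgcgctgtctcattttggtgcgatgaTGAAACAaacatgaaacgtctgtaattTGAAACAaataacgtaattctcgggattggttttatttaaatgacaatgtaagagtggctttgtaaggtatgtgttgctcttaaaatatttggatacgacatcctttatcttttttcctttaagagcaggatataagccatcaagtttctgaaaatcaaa
PRM6, chrXIII:181076-181375, minus strand: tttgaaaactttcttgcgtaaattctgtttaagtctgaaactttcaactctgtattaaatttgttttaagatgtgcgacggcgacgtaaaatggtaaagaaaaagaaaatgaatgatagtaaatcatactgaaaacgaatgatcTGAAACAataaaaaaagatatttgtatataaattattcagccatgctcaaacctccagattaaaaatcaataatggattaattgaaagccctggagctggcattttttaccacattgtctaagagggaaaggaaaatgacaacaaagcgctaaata

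The AGA1 and PRM6 windows each held 1 copy, that of FUS1 held 2, and that of PRM1 held 3, all on the opposite strand. Over both strands, TGAAACA occurred in 401 of the 5641 windows of genes tested (7.11%), in 12 of the 23 windows of the pheromone response and cell fusion list (52.2%), and in 5 of 7 windows of a-specific genes. It was found in 20 of 167 windows (12%) of the genes higher in shocked in a limma fit over 8 libraries and in 17 of 235 windows (7.23%) of those lower. The windows of FIG1, MFA1 and ASG7 did not hold these letters. A match is a description of the sequence and not of binding. The pheromone and a-specific lists were made of mating genes, so their shares describe the lists and not the shocked libraries. The 167 higher genes include 7 of the pheromone list and 3 a-specific ones, with ASG7 in both.

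Few genes passed the test between shocked and untreated. Of 5649 genes with a mean of at least 10 normalized reads, 2 rose in limma's moderated test at a Benjamini-Hochberg adjusted p under 0.05 (0.0354% of genes tested) and 0 fell (0%). At an unadjusted p under 0.05, the same test passed 1220 genes (21.6%), of which 578 were higher (10.2%) and 642 lower (11.4%). edgeR's quasi-likelihood test on the recovered reads called 0 genes in either direction, with 1220 at an unadjusted p under 0.05 and a smallest adjusted p of 0.0593, and DESeq2 called 97 higher (1.72%) and 195 lower (3.45%). A limma fit over all 8 wild-type libraries, which shares 1 estimate of the spread with the unshocked and perchlorate-grown pairs, called 167 genes higher (2.96%) and 235 lower (4.16%). Scaled by total reads, that fit called 239 higher and 84 lower. Without shocked replicate 1 the 8-library fit called 3 genes higher and 9 lower, all 12 of them among its 402 calls with all libraries. Those higher were AGA1, PRM1 and MUP3, and those lower were ARO10, CAR1, CAR2, CDC6, CSR1, PHO84, VID24, YGR079W and YOX1. Leaving out untreated replicate 2 gave 333 higher and 475 lower, and leaving out untreated replicate 1 gave 157 and 95, of which 160 genes were among the 402. Without shocked replicate 2 it called 100 and 128 genes, and without unshocked replicate 1 or 2 it called 29 and 55 or 30 and 52. In the 4-library test, leaving out either untreated library left 0 calls, leaving out shocked replicate 1 gave 7 higher and 6 lower, and leaving out shocked replicate 2 gave 89 and 88.

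Both shocked values lay above both untreated values in 1610 genes (28.5%) and below them in 1601 (28.3%). The median log2 fold change over all genes tested was 0.01. A change of at least 2-fold was seen in 62 genes upward (1.1%) and 57 downward (1.01%). In a limma fit over the 6 untreated, unshocked and shocked libraries, 32 genes were called higher and 32 lower in shocked than in untreated (0.566% each). The same fit called 1151 genes higher (20.4%) and 1227 lower (21.7%) in unshocked than in untreated. It called 847 higher (15%) and 736 lower (13%) in shocked than in unshocked. These 3 contrasts share libraries. Each untreated, shocked and unshocked library was left out of the 8-library fit in turn, and the perchlorate-grown pair was kept throughout. Without shocked replicate 1, that fit called genes only in the pheromone response (2), arginine (2), phosphate (1), cell cycle (1) and sulfur (1) lists among all those described below. In the text that follows, rose or fell refers to the 8-library fit unless the 4-library test is named, and every adjusted p is Benjamini-Hochberg adjusted over all genes tested. The spread in that fit is shared with pairs outside this comparison. Replicates of the unshocked pair differed at least 2-fold in 27 genes, against 128 in untreated and 81 in shocked. A call of the 8-library fit thus does not rest on the spread of the compared groups alone, and only 2 genes passed the 4-library test. List counts that rose or fell stand beside 2.96% and 4.16% of all genes tested. Those higher or lower without overlap stand beside 28.5% and 28.3%. Fold changes of shocked over untreated and their standard errors (SE) are those of the 4-library fit. An SE and an 8-library adjusted p given together therefore come from different fits.

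**Figure D1:**
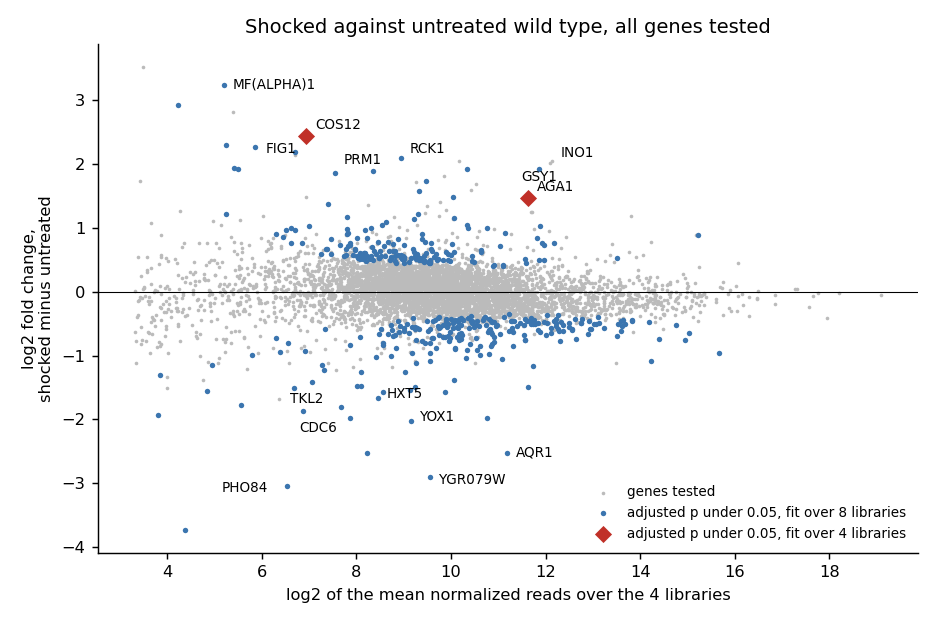
Each point is 1 of 5649 genes tested, with the log2 of its mean normalized reads over the 4 libraries on the x axis and the log2 fold change of shocked over untreated on the y axis. Most points lie near 0, red diamonds mark the 2 genes called over 4 libraries, and blue points mark those called over 8 libraries, 167 higher and 235 lower.

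Part of the genes of the pheromone response were higher in the shocked libraries. AGA1 (YNR044W), which anchors the a-agglutinin to the cell wall, rose in the 4-library test. It had 1572 and 1817 normalized reads in the untreated libraries and 4508 and 4804 in the shocked ones. Both shocked values lay above both untreated values, and the unshocked libraries had 1794 and 1324. The log2 fold change was 1.46 (SE 0.12), a 2.75-fold rise with an adjusted p of 0.0490, and leaving out untreated replicate 1 or 2 gave 0.225 and 0.149. Shocked also exceeded unshocked in AGA1, by 1.59 on the log2 scale with an adjusted p of 0.0017 over 6 libraries. The unshocked libraries differed from the untreated ones in AGA1 by -0.14, with an adjusted p of 0.51.

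AGA2, the adhesion subunit bound to Aga1, had 809 and 869 normalized reads untreated and 1790 and 1690 shocked. The unshocked values of AGA2 were 1058 and 994. Its log2 fold change was 1.05 (SE 0.12), with an adjusted p of 0.0596 over 4 libraries and 0.0161 over 8. FIG1, a membrane protein needed for calcium influx during mating, had 22.8 and 16.3 normalized reads untreated, 100.3 and 92.7 shocked, and 15.1 and 10.6 unshocked. Its log2 fold change was 2.26 (SE 0.29, adjusted p 0.0856 over 4 libraries and 0.0155 over 8). PRM1, a membrane protein that acts in cell fusion, had 82.7 and 75.8 untreated, 252 and 334 shocked, and 74.7 and 59.8 unshocked, and rose by 1.86 on the log2 scale (SE 0.20, adjusted p 0.0101 over 8 libraries). In these genes the shocked libraries were above all 4 others.

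PRM6, which encodes a membrane protein with a role in potassium transport, was near the lower limit of measurement, with 5.17 and 2.33 normalized reads untreated against 29.1 and 38.5 shocked. Unshocked libraries had 3.78 and 5.73, and the 8-library adjusted p of PRM6 was 0.0304. PRM2, another pheromone-regulated membrane protein, had 17.6 and 16.3 untreated, 70.2 and 65.6 shocked, and 33.1 and 27.8 unshocked. The value of PRM2 in the unshocked libraries lay between the other groups. FUS1, which acts at the site of cell fusion, had 300 and 268 normalized reads untreated, 418 and 630 shocked and 262 and 251 unshocked. The log2 fold change of FUS1 was 0.85 (SE 0.22), and it was not called, with an adjusted p of 0.0544 over 8 libraries. FIG2, a wall adhesin of mating cells, with a log2 fold change of 0.41 (SE 0.15), and KAR4, a regulator of nuclear fusion genes, with 0.51 (SE 0.32), were not called either.

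Of 23 members of the pheromone response and cell fusion list that were tested, 1 rose in the 4-library test, 7 rose and 0 fell in the 8-library fit, and 12 were higher without overlap (52.2%). STE4, the beta subunit of the G protein, was among the 7, where it rose by 0.42 on the log2 scale (SE 0.12, adjusted p 0.0473 over 8 libraries). Leaving out 1 library at a time, 2 (without shocked replicate 1) to 8 (without untreated replicate 2) of the list rose. The median of the list was 0.42, beside 0.01 over all genes. Against untreated, the unshocked libraries had a list median of -0.15. TEC1, a transcription factor that works with Ste12 and was not on the list, had 909 and 852 normalized reads untreated, 1856 and 1669 shocked, and 1289 and 901 unshocked. It rose by 1.00 on the log2 scale (SE 0.12, adjusted p 0.0275 over 8 libraries).

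The genes that mark a cells were higher as well. All 7 of MFA1, MFA2, STE2, STE6, BAR1, AGA2 and ASG7 were higher in both shocked libraries than in either untreated one, with a median log2 fold change of 0.47. Of these, AGA2, MFA1 and ASG7 rose in the 8-library fit, 0 without shocked replicate 1 and 1 without either unshocked library. MFA1, a gene for the a-factor pheromone, had 3069 and 2676 normalized reads untreated, 5508 and 4284 shocked and 2990 and 3266 unshocked, with an adjusted p of 0.0379. ASG7, an a-specific regulator of pheromone signalling, had 210.0 and 211 untreated, 390.3 and 458 shocked and 494 and 374 unshocked. ASG7 was thus as high in unshocked as in shocked libraries, unlike AGA2 or MFA1. STE2, the receptor for alpha-factor, had 8644 and 10137 untreated and 13710 and 12244 shocked and 9509 and 9588 unshocked, a log2 fold change of 0.47 (SE 0.12) that was not called (adjusted p 0.0686 over 8 libraries). STE6, the exporter of a-factor, and BAR1, the protease that degrades alpha-factor, differed by 0.24 (SE 0.11) and 0.32 (SE 0.14) and were not called.

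**Figure D2:**
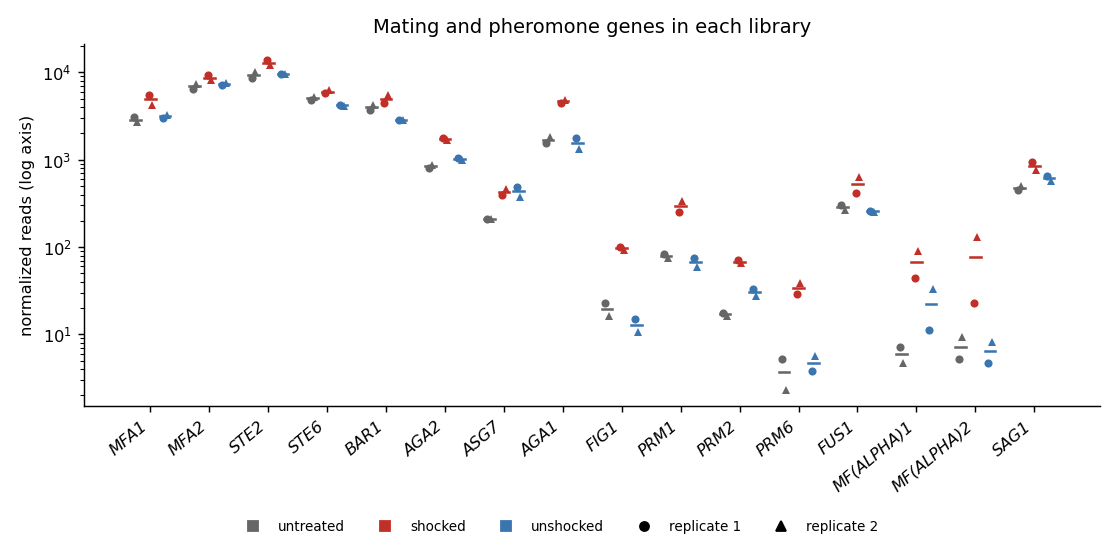
Normalized reads on a log axis for 16 mating genes in each of the untreated, shocked and unshocked libraries, with circles for replicate 1, triangles for replicate 2 and lines for the mean of 2. AGA1, FIG1, PRM1 and PRM6 are higher in both shocked libraries than in the other 4, while ASG7 is equally high in unshocked.

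Of the 4 alpha cell markers, 3 were also higher in both shocked libraries than in either untreated one, and STE3 was not. MF(ALPHA)1 and MF(ALPHA)2 were at low levels, and SAG1 was not. The 4 markers MF(ALPHA)1, MF(ALPHA)2, STE3 and SAG1 had reads in all libraries. They summed to 37.4 and 41.2 RPM (reads scaled to library size) in the untreated, 70.6 and 76.5 in the shocked and 48.6 and 51.0 in the unshocked libraries. SAG1 gave 438 of the 576 summed reads in untreated replicate 1 and 941 of 1103 in shocked replicate 1. The 7 a markers summed to 1744 and 1873, 2611 and 2561, and 1805 and 1968. The sum of 9 sporulation markers was 22.3 to 24.8 RPM in untreated, 23.3 to 28.4 in shocked and 24.4 to 31.4 in unshocked libraries. MF(ALPHA)1, a gene for alpha-factor, had 7 and 4 reads untreated, 44 and 111 shocked, and 12 and 40 unshocked. MF(ALPHA)2 had 5 and 8, 23 and 158, and 5 and 10 reads. Both genes were highest in shocked replicate 2. SAG1, the alpha-agglutinin, had 453 and 505 normalized reads untreated and 944 and 770.1 shocked and 646 and 574 unshocked, and rose by 0.83 on the log2 scale (SE 0.15, adjusted p 0.0172 over 8 libraries). STE3, the receptor for a-factor, had 130.3 and 159 untreated and 95.3 and 162 shocked and 101 and 133 unshocked, and the groups overlapped.

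Reads of LEU2 and MET17, which BY4741 is known to lack, were also seen in some of these libraries. LEU2 had 0 and 0 reads in the untreated libraries, 5 and 23 in the shocked and 0 and 20 in the unshocked. MET17 had 0 and 0, 2 and 52, and 0 and 10. In the 2 libraries of the untreated mutant, LEU2 had 6319 and 5366 reads, MET17 8873 and 9926, MF(ALPHA)1 20775 and 22817, and MFA1 6 and 9. There STE3 had 4319 and 4464 reads, beside 95 and 197 in the shocked wild type. SAG1 had 792 and 1157, beside 941 and 939 in the shocked wild type. Shocked replicate 2 therefore held the most reads of LEU2, MET17, MF(ALPHA)1 and MF(ALPHA)2 among the wild-type libraries of these 3 groups. The part of such reads in the difference of the pheromone genes was not tested. HIS3 and URA3 are also known to carry deletions in BY4741, yet both had reads in every library of these 3 groups. The origin of these reads was not tested. HIS3 had 987 and 1066 normalized reads untreated and 1003 and 1104 shocked. URA3, which the medium selects for, had 2553 and 2417 untreated, 3899 and 3214 shocked and 3178 and 3415 unshocked, and rose by 0.51 on the log2 scale (SE 0.13, adjusted p 0.0473 over 8 libraries).

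COS12 (YGL263W), a member of the COS family of subtelomeric membrane proteins, was the other gene that rose in the 4-library test. It had 36.2 and 38.5 normalized reads in the untreated, 212 and 203 in the shocked, and 109 and 93.3 in the unshocked libraries. The log2 fold change was 2.44 (SE 0.20, adjusted p 0.0490, and 0.225 or 0.149 without untreated replicate 1 or 2), a 5.43-fold rise. Unlike AGA1, COS12 was also higher in unshocked than in untreated, by 1.41 with an adjusted p of 0.0017 over 6 libraries, and it was higher in shocked than in unshocked, by 1.03 with an adjusted p of 0.0067. No other transcript matched it over at least 50% of its length at 95% identity. Of 31 tested members of subtelomeric and Ty-linked families, 1 rose in the 4-library test, 2 rose in the 8-library fit and the median was 0.04. Without untreated replicate 1, 5 of them rose, and without any other library 0 or 1. RCK1, a protein kinase of the stress response, had 232 and 148 normalized reads untreated, 767 and 818 shocked, and 728 and 373 unshocked. RCK1 rose by 2.09 on the log2 scale (SE 0.23, adjusted p 0.0168 over 8 libraries).

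Some regulators of the cell cycle were lower in the shocked libraries. YOX1, a repressor that acts at the passage from mitosis to G1, had 862 and 965 normalized reads untreated and 183 and 272 shocked. The unshocked libraries had 332 and 473, between the other groups. YOX1 fell by 2.03 on the log2 scale (SE 0.21, adjusted p 0.0596 over 4 libraries and 0.010 over 8). CDC6, which loads the replicative helicase, had 358 and 377 untreated, 66.2 and 129.6 shocked, and 88.9 and 93.3 unshocked. CDC6 fell by 1.97 (SE 0.32, adjusted p 0.0159 over 8 libraries), and the shocked and unshocked values overlapped. CLB6, an S-phase cyclin, had 142 and 161, 46.2 and 59.1, and 87.0 and 94.2, and fell by 1.51 (SE 0.23, adjusted p 0.0118).

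PCL2, a G1 cyclin of the kinase Pho85, had 631 and 503 untreated, 246 and 321 shocked and 213 and 302 unshocked, and fell by 1.00 (SE 0.19). RNR1, the large subunit of ribonucleotide reductase, had 7168 and 8853 normalized reads untreated and 5591 and 5764 shocked and 5036 and 5038 unshocked, and fell by 0.49 (SE 0.13, adjusted p 0.0395 over 8 libraries). Of 35 cell cycle regulators and histone genes tested, 4 fell and 1 rose in the 8-library fit, and the median was -0.08. Without overlap, 11 were lower (31.4%) and 7 higher (20%), near the 28.3% and 28.5% over all genes. Without shocked replicate 1, CDC6 alone of this list was called, and without either unshocked library 3 fell and 0 rose. CDC20, an activator of the anaphase-promoting complex, was the 1 that rose, by 0.61 (SE 0.13). The 4 that fell were CDC6, CLB6, PCL2 and ASH1, a repressor of mating type switching in daughter cells.

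Among the largest differences downward were genes of transport and of unknown function. YGR079W, whose function is not known, had 1231 and 1401 normalized reads untreated, 129 and 237 shocked, and 75.7 and 158 unshocked. It fell by 2.90 on the log2 scale (SE 0.28, adjusted p 0.0596 over 4 libraries and 0.0101 over 8). AQR1, a plasma membrane exporter of acids and drugs, had 3077 and 4798 untreated, 452.5 and 978 shocked, and 269 and 449 unshocked, and fell by 2.53 (SE 0.38, adjusted p 0.0155 over 8 libraries). YOR338W had 549 and 456 untreated, 60.2 and 124 shocked and 68.1 and 162 unshocked. Shocked and unshocked values overlapped in YGR079W and YOR338W, and in all 3 genes both groups lay below untreated.

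VTS1, an RNA-binding protein that directs mRNAs to deadenylation, had 1222 and 1578 untreated, 351 and 614 shocked, and 200 and 296 unshocked. VTS1 fell by 1.58 (SE 0.28, adjusted p 0.0205 over 8 libraries). PDE2, the high-affinity cyclic AMP phosphodiesterase, had 1916 and 2233 untreated against 953 and 1142 shocked and 940.3 and 1145 unshocked. NCE103, the carbonic anhydrase, had 3377 and 2131 untreated and 452.5 and 1019.5 shocked and 1021 and 1720.2 unshocked, and fell by 1.98 (SE 0.40, adjusted p 0.0266 over 8 libraries). PHO84, the high-affinity phosphate transporter, had 118 and 216 normalized reads untreated, 18.1 and 18.9 shocked, and 337 and 617 unshocked. PHO84 overlaps another gene and has a near-identical copy by the criteria used, so its value is uncertain. Shocked and unshocked differed from untreated in opposite directions, by -3.04 (SE 0.34) and 1.51 on the log2 scale. Of 30 phosphate starvation genes tested, 2 fell and 0 rose in the 8-library fit, with a median of -0.11. Without untreated replicate 2, 4 fell and 1 rose, and without any other library 1 fell.

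**Figure D3:**
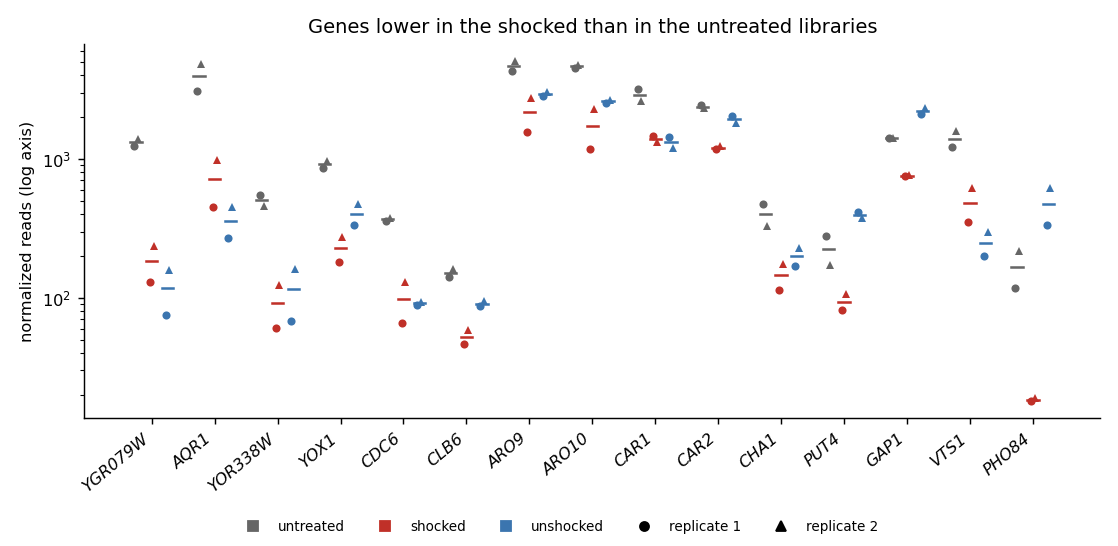
Normalized reads on a log axis for 15 genes that were lower in shocked than in untreated, in each of 6 libraries, with circles for replicate 1, triangles for replicate 2 and lines for the mean of 2. Both shocked libraries lie below both untreated ones in every gene shown, and the unshocked libraries lie above untreated in GAP1, PUT4 and PHO84.

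Several enzymes that break down amino acids were lower in the shocked libraries. ARO10, a decarboxylase of aromatic amino acid breakdown, had 4518 and 4749 normalized reads untreated, 1189 and 2291 shocked, and 2536 and 2667 unshocked. ARO10 fell by 1.49 (SE 0.29, adjusted p 0.0182 over 8 libraries). ARO9, the aromatic aminotransferase that precedes it, fell by 1.17 (SE 0.26), with 2848 and 3042 unshocked beside 4312 and 5074 untreated and 1564 and 2762 shocked. CAR1, arginase, had 3203 and 2604 untreated, 1455 and 1335 shocked, and 1429 and 1205 unshocked, and fell by 1.05 (SE 0.14). CAR2, ornithine transaminase, had 2431 and 2330 untreated, 1182 and 1234 shocked and 2031 and 1820 unshocked, and fell by 0.98 (SE 0.11, adjusted p 0.0596 over 4 libraries and 0.010 over 8). CAR1 was as low in unshocked as in shocked, and CAR2 was lower in shocked than in unshocked, by 0.67 with an adjusted p of 0.0039 over 6 libraries.

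CHA1, the serine and threonine deaminase, had 476 and 330.2 untreated, 114 and 176 shocked and 170.3 and 230.1 unshocked, and fell by 1.48 (SE 0.27). GAP1, the general amino acid permease, had 1410 and 1407 untreated, 754 and 760.3 shocked and 2102 and 2341 unshocked. GAP1 fell by 0.90 (SE 0.11, adjusted p 0.0204 over 8 libraries), and unshocked was higher than untreated by 0.65. PUT4, the proline permease, fell by 1.23 (SE 0.28), from 280.3 and 172 to 81.3 and 106, and had 418 and 377 unshocked. MEP1, an ammonium permease, fell by 0.75 (SE 0.14), from 834 and 699 to 442 and 463, and had 807 and 790.1 unshocked. Of 39 amino acid permease and nitrogen catabolism genes tested, 14 were lower (35.9%) and 8 higher (20.5%) without overlap, beside 28.3% and 28.5% over all genes. In the 8-library fit 5 fell and 0 rose, and the median was -0.11. The count that fell was 0 without shocked replicate 1, 2 without either unshocked library, 3 without untreated replicate 1 or shocked replicate 2, and 7 without untreated replicate 2. Of 16 arginine genes, 3 fell and 0 rose (CAR1, CAR2 and ARG7, of arginine synthesis), 9 were lower without overlap (56.2%), and 2 to 4 fell with 1 library left out.

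Genes of the general stress response, which the factors Msn2 and Msn4 are known to turn on, were lower in part of the list in shocked against untreated. Of 50 tested, 13 were lower (26%) and 3 higher (6%) without overlap, beside 28.3% and 28.5% over all genes. In the 8-library fit 7 fell and 0 rose, beside 4.16% and 2.96% over all genes, and the median was -0.11. The count depended on the untreated libraries: 4 rose and 4 fell without untreated replicate 1, and 0 rose and 18 fell without untreated replicate 2. Without shocked replicate 1, 0 were called, and without either unshocked library 2 fell. In the 6-library fit, 44 of the same 50 genes were higher in unshocked than in untreated, with a median of 1.60. TKL2, a transketolase, had 381 and 252 normalized reads untreated, 66.2 and 117 shocked, and 1065 and 1311 unshocked. TKL2 fell by 1.80 (SE 0.33, adjusted p 0.0161 over 8 libraries) between untreated and shocked. DDR2, a small stress protein, had 2169 and 1271, 919 and 713, and 4828 and 5228, and fell by 1.04 (SE 0.27, adjusted p 0.0350). FMP45 and ALD3, an integral membrane protein and an aldehyde dehydrogenase, fell by 1.55 (SE 0.37) and 1.11 (SE 0.28). Untreated replicate 1 was the higher of the untreated pair in each of these 4 genes.

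HSP12, a small heat shock protein, had 17788 and 12618 untreated, 4177 and 11342 shocked, and 26046 and 30166 unshocked, and was not called (log2 fold change -1.12, SE 0.45). CTT1, the cytosolic catalase, had 2295 and 1098, 1247 and 737, and 7036 and 6819, and its untreated and shocked values overlapped. GPD1, which makes glycerol phosphate for osmotic protection, had 9941 and 8673 normalized reads untreated, 6073 and 5607 shocked and 16082 and 13846 unshocked. GPD1 fell by 0.67 (SE 0.11, adjusted p 0.0243 over 8 libraries). Of 34 Hog1 osmotic response genes, 6 fell and 0 rose in the 8-library fit, 16 were lower without overlap (47.1%), and the median was -0.33. That count of falls was 0 without shocked replicate 1, 2 without untreated replicate 1 or either unshocked library, and 13 without untreated replicate 2. GPP1, a glycerol phosphatase, fell by 0.73 (SE 0.16) and GRE2, a stress-induced reductase, by 0.64 (SE 0.11).

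Chaperone genes were lower in shocked than in untreated in part of the list. Of 36 chaperone and Hsf1 target genes, 5 fell and 1 rose in the 8-library fit, 19 were lower without overlap (52.8%), and the median was -0.18. Without untreated replicate 1, shocked replicate 1 or either unshocked library, 0 fell. SSA1 and SSA2, cytosolic Hsp70 proteins that are nearly identical and whose counts are therefore uncertain, had 28909 and 23023 and 64947 and 71002 normalized reads untreated. In the shocked libraries SSA1 had 9648 and 15337, and SSA2 28131 and 43139. The unshocked libraries had 32338 and 35135 for SSA1, above untreated, and 44676 and 36768 for SSA2, below untreated. HSC82, an Hsp90 protein, had 42409 and 36767 untreated, 20421 and 26956 shocked and 30799 and 27955 unshocked, and fell by 0.75 (SE 0.15, adjusted p 0.0332 over 8 libraries). AHA1, which stimulates Hsp90, fell by 0.85 (SE 0.21). OPI10, a regulator of Hsp70 import, was the 1 that rose, by 0.78 (SE 0.15). KAR2, the Hsp70 of the endoplasmic reticulum, had 14763 and 15335 untreated, 9291 and 10359 shocked and 14956 and 17768 unshocked, and fell by 0.62 (SE 0.10, adjusted p 0.0275). It was the only one of 28 unfolded protein response genes called in the 8-library fit, and the median of that list was -0.05. With 1 library left out, 0 to 2 of the list fell.

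Some genes of hexose transport and sensing and of glycogen were higher in the shocked libraries, with a wide spread between the untreated replicates. GLG1, glycogenin, had 397 and 262.5 normalized reads untreated, 1279 and 914 shocked, and 2223 and 1650 unshocked. GLG1 rose by 1.74 on the log2 scale (SE 0.25, adjusted p 0.0155 over 8 libraries). PIG2, a glycogen-targeting subunit of protein phosphatase 1, rose by 1.05 (SE 0.25). GSY1, glycogen synthase, had 3133 and 740 untreated, 9706 and 3900 shocked and 15211 and 9329 unshocked. The untreated values of GSY1 differed more than 4-fold from each other, and it was not called (log2 fold change 2.01, SE 0.72). Of 22 trehalose and glycogen genes, 2 rose and 0 fell in the 8-library fit, and the median was 0.03, against 1.66 for unshocked over untreated. Without overlap, 4 were higher (18.2%) and 3 lower (13.6%), both below the 28.5% and 28.3% over all genes. Between 0 (without shocked replicate 1) and 5 (without untreated replicate 1) rose with 1 library left out.

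HXT3, a low-affinity glucose transporter, had 31459 and 22323 untreated, 56426 and 43087 shocked and 40296 and 32139 unshocked, and rose by 0.90 (SE 0.20, adjusted p 0.0394 over 8 libraries). MTH1, a repressor in glucose sensing, had 935 and 284 untreated, 2431 and 1557 shocked and 2972 and 2036 unshocked, and rose by 1.92 (SE 0.54, adjusted p 0.0462). HXT5, which is known to be expressed in slowly growing cells, had 781 and 313 untreated, 149.5 and 161 shocked and 1362 and 1452 unshocked. HXT5 fell by 1.67 (SE 0.40, adjusted p 0.0314), the opposite direction to HXT3 and MTH1. HXT4 had 4326 and 1336, 9656 and 5585, and 20286 and 14054, and was not called (log2 fold change 1.61, SE 0.55). Of 19 hexose transport and sensing genes, 4 rose (HXT3, MTH1, STD1 and MIG3) and 1 fell (HXT5) in the 8-library fit. HXT3 was the only HXT gene among those that rose. In this list 8 were higher (42.1%) and 4 lower (21.1%) without overlap, and the median was 0.55. Leaving out untreated replicate 1 gave 9 that rose and 1 that fell, untreated replicate 2 gave 2 and 3, and shocked replicate 1 or either unshocked library gave 0 and 0. MAL31, a maltose permease, and HSP30, a stress-induced membrane protein, had log2 fold changes of 1.81 (SE 0.53) and 1.68 (SE 0.50) and were not called, with adjusted p of 0.0512 and 0.0548 over 8 libraries. In MTH1, GSY1, HXT4, MAL31 and HSP30, untreated replicate 1 had more than 3 times the value of replicate 2, and shocked replicate 1 was the higher of the shocked pair.

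INO1, ZPS1 and ZRT1 differed mainly in 1 shocked library. INO1, which makes inositol phosphate for phospholipid synthesis, had 916 and 1502 normalized reads untreated, 13832 and 1719 shocked, and 17908 and 42848 unshocked. ZPS1, a cell wall protein induced when zinc is low, had 272 and 335 untreated, 3574 and 434 shocked, and 15499 and 34194 unshocked. ZRT1, the high-affinity zinc transporter, had 6809 and 8054, 34401 and 8204, and 39680 and 53306. In all 3 genes, shocked replicate 2 lay near the untreated libraries and shocked replicate 1 lay between untreated and unshocked. None was called in shocked against untreated, with adjusted p of 0.13, 0.13 and 0.17 over 8 libraries. Of 21 copper and zinc genes tested, 1 fell (IZH1, a membrane protein of zinc homeostasis) and 0 rose in the 8-library fit. Without shocked replicate 2, 5 rose and 2 fell, without untreated replicate 2, 1 rose and 1 fell, and without any other library 0 were called.

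**Figure D4:**
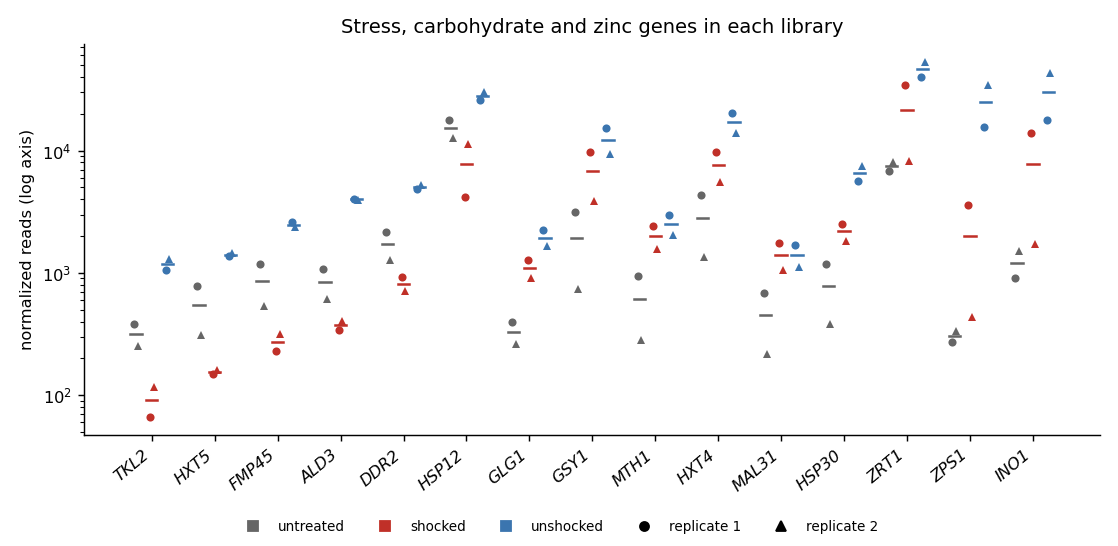
Normalized reads on a log axis for 15 stress, carbohydrate and zinc genes in each of 6 libraries, with circles for replicate 1, triangles for replicate 2 and lines for the mean of 2. Shocked lies below and unshocked above untreated in TKL2, HXT5, FMP45, ALD3 and DDR2, and the shocked replicates are far apart in ZRT1, ZPS1 and INO1.

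Genes of the cytosolic ribosome and its assembly differed little between shocked and untreated. Of 137 cytosolic ribosomal protein genes, 0 were called in the 4-library test, in the 8-library fit or by DESeq2, 77 were lower without overlap (56.2%), and the median log2 fold change was -0.10, with a range of -0.36 to 0.33. RPL5, which binds the 5S rRNA, had 59777 and 64603 normalized reads untreated, 50238 and 46672 shocked and 40589 and 35420 unshocked. Against untreated, the unshocked libraries had a median of -0.59 over the same genes. Of 107 ribosome biogenesis genes, 1 rose and 2 fell in the 8-library fit and the median was 0.09, where unshocked against untreated had -1.13. Without untreated replicate 2, 7 of these rose and 1 fell, and without shocked replicate 2, 1 rose and 7 fell. Without shocked replicate 1 or either unshocked library, 0 were called. ESF1, a nucleolar factor of small subunit assembly, was the 1 that rose, with 2961 and 3981 untreated, 5841 and 5836 shocked and 3236 and 3077 unshocked. RRN7, a subunit of the core factor of RNA polymerase I, had 406 and 508 untreated, 189 and 262 shocked and 145 and 181 unshocked, and fell by 1.03 (SE 0.21, adjusted p 0.0251).

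Of 21 cytosolic aminoacyl-tRNA synthetases, 16 were lower without overlap (76.2%), 1 fell in the 8-library fit and the median was -0.22. FRS2, the alpha subunit of phenylalanyl-tRNA synthetase, was the 1 that fell, from 7432 and 6939 to 4989 and 4617 normalized reads, with 4085 and 3781 unshocked. With 1 library left out, 0 to 2 of these synthetases fell. Of 39 stress granule and translation initiation genes, 5 fell, among them NIP1, a subunit of initiation factor 3, by 0.65 (SE 0.14), DED1, an RNA helicase, by 0.62 (SE 0.14), and PAB1, the poly(A)-binding protein, by 0.52 (SE 0.11). The median of that list was 0.03. Of 36 P-body and mRNA decay genes, 5 fell and 0 rose, among them PAT1, an activator of decapping, which had 3185 and 3181 untreated, 2154 and 2245 shocked and 2340 and 2090.3 unshocked. In that list 13 genes were lower (36.1%) and 15 higher (41.7%) without overlap, beside 28.3% and 28.5% over all genes, and the median was -0.04. With 1 library left out, 0 to 6 genes of either list fell, and without untreated replicate 2, 5 of the P-body list rose.

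The mitochondrial ribosome and the respiratory chain lay on opposite sides of 0. Of 68 mitochondrial ribosomal protein genes, 49 were higher without overlap (72.1%) and 5 lower, 6 rose and 2 fell in the 8-library fit, and the median was 0.28. The unshocked libraries had a median of 0.41 over the same genes. MRPL24 had 393 and 406 normalized reads untreated, 595 and 568 shocked and 601 and 608 unshocked, and MRPL28 had 219 and 265, 350.2 and 360.1, and 397 and 396. They rose by 0.54 (SE 0.13) and 0.56 (SE 0.16). MRP4, of the small subunit, fell by 0.68 (SE 0.12) and MRPL4 by 0.77 (SE 0.19). DESeq2 called 0 of the list higher and 2 lower, and the 8-library fit called 0 higher without any 1 library other than untreated replicate 2. Of 46 respiratory chain and ATP synthase genes, 27 were lower without overlap (58.7%) and 1 higher, 4 fell and 0 rose, and the median was -0.28, against 0.27 for unshocked over untreated. Without untreated replicate 2, 11 of them fell, and without any other single library 0 fell, while 2 rose without untreated replicate 1. INH1, the inhibitor of the mitochondrial ATPase, had 1364 and 1162 untreated, 848 and 685 shocked and 1441 and 1494 unshocked, and fell by 0.72 (SE 0.16). ATP1, QCR2 and COR1, subunits of the ATP synthase and of complex III, fell by 0.46 (SE 0.11), 0.67 (SE 0.20) and 0.61 (SE 0.17).

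Of 31 ergosterol synthesis genes, 19 were lower without overlap (61.3%), 3 fell in the 8-library fit and the median was -0.20. The 3 falls became 1 without shocked replicate 2 and 0 without shocked replicate 1 or either unshocked library. ERG25, the C-4 sterol methyl oxidase, had 8930.2 and 9829.6 normalized reads untreated, 5929 and 6659.8 shocked and 5027 and 5147 unshocked, and fell by 0.58 (SE 0.11). Of 33 fatty acid and phospholipid genes, 16 were higher without overlap (48.5%), 1 rose and the median was 0.15. INO4, an activator of phospholipid genes, was the 1 that rose, with 409 and 361 untreated, 740.5 and 550.3 shocked and 786 and 736 unshocked. In this list 7 genes rose without shocked replicate 2, and 0 without shocked replicate 1 or either unshocked library. Among 35 genes of sulfur assimilation and methionine, 2 rose and 3 fell, with 1 to 4 that rose and 0 to 4 that fell when 1 library was left out. MUP3, a methionine permease, rose by 1.57 (SE 0.24) and MET28, a regulator of sulfur genes, by 0.97 (SE 0.25), while MET3, ATP sulfurylase, fell by 0.78 (SE 0.14). The other lists are given by their medians, which lay between -0.20 and 0.13. They are given with the range of the same count when 1 library was left out. The count that fell was 3 of 35 in the TCA and glyoxylate cycle (0 to 7), 5 of 42 in oxidative stress (0 to 12), 1 of 36 in the proteasome (0 to 7), 2 of 32 in glycolysis and fermentation (0 to 4), 3 of 61 in the cell wall (0 to 7) and 2 of 38 in actin and endocytosis (0 to 6). In these 6 lists the highest count came without untreated replicate 2, and without any other library 0 oxidative stress genes fell. With 1 library left out, 0 to 2 genes of each of these 6 lists rose. Of 27 eisosome and membrane protein genes, 3 rose (0 to 4) and 1 fell (0 to 6), and of 40 genes of RNA polymerases I and III, 1 rose (0 to 4) and 1 fell (0 to 2). The count that rose was 2 of 34 in autophagy (0 to 3), 1 of 30 in hypoxic genes (0 to 3), 1 of 26 in purine synthesis (0 to 3) and 1 of 16 in pyrimidine synthesis (0 to 1). That pyrimidine gene was URA3, which the medium selects for, and 9 of the 16 were lower without overlap (56.2%). Without untreated replicate 2, 2 autophagy genes and 3 hypoxic genes fell, and without any other library 0 did. Of the hypoxic genes, 8 were higher (26.7%) and 9 lower (30%) without overlap. The count that fell was 2 of 34 in iron (0 to 2), 1 of 37 in DNA damage, 1 of 24 in thiamine and vitamin B6, 1 of 11 in lysine and 2 of 14 in branched-chain amino acids (0 to 1 each). In these lists too, 0 to 2 genes rose with 1 library left out. Meiosis and sporulation (0 of 17) and histidine (0 of 8) had no call with all libraries.

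**Figure D5:**
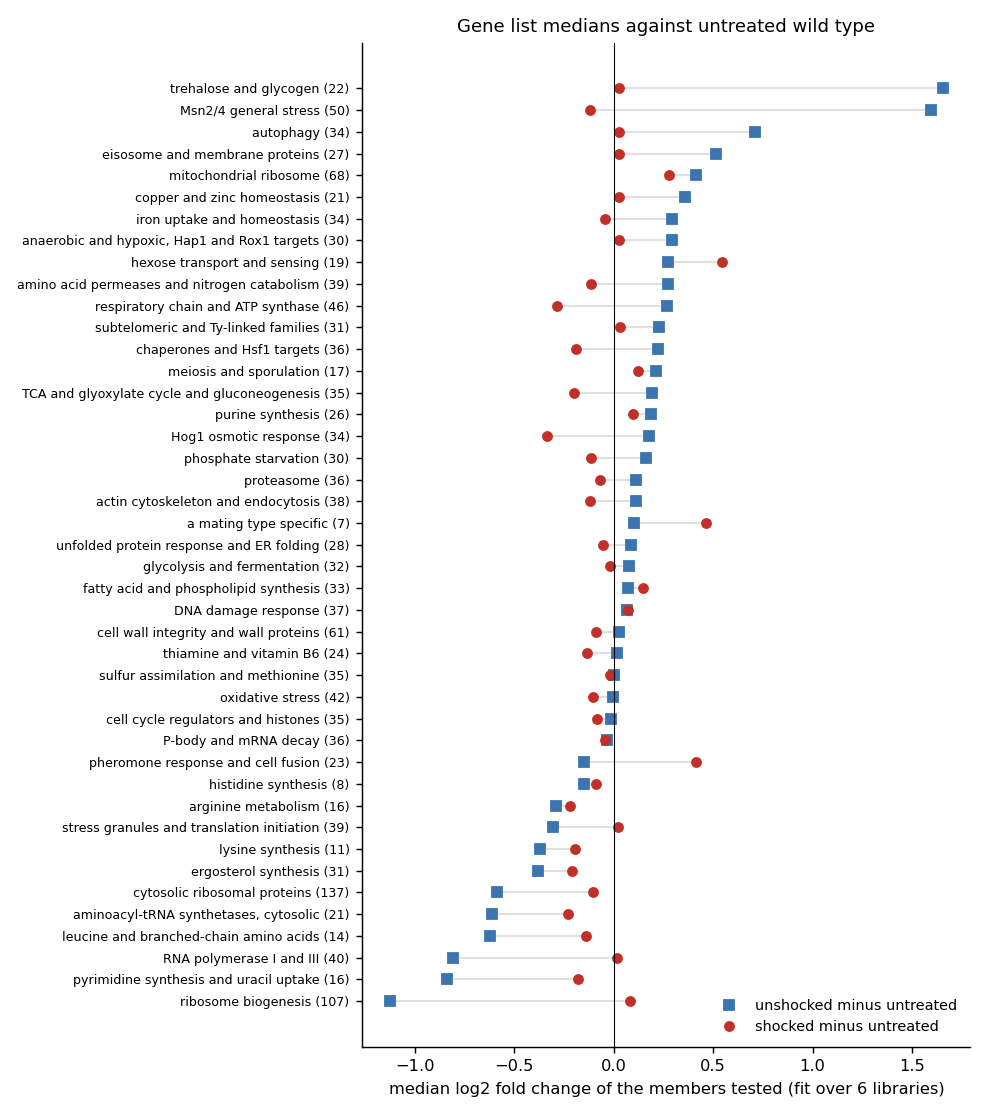
Median log2 fold change against untreated of the members of each gene list other than the alpha-specific genes and the strain markers, which are not drawn (shocked medians of 1.82 and 0.03), from the fit over 6 libraries, with circles for shocked and squares for unshocked and the number of members tested in parentheses. Among the lists drawn, shocked medians lie between -0.33 and 0.55 and are highest for hexose transport, a-specific and pheromone genes, while unshocked medians run from -1.13 for ribosome biogenesis to 1.66 for trehalose and glycogen.

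Fewer cells of a state and less RNA per cell cannot be told apart in these bulk libraries. With 2 libraries a group and 2 residual degrees of freedom in the 4-library test, missing the threshold does not show that a gene stayed the same.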

How the data were processed

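RNA extracted with hot phenol was sequenced with a directional kit. Per the submitters' processing notes, the authors used Trim Galore, FastQC and HISAT2 (versions not given). Build, strand setting and read counter are likewise not given in the sources used here. The authors deposited, for each comparison, a signal per transcript: reads divided by a size factor of that table, per the file headers. The deposited log2 fold changes of the authors were not used for any result, only to leave out 3 transcripts without an entry.

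Whole reads were recovered by dividing by the value of 1 read, and 100% were whole within 0.01. Libraries found in 2 tables gave the same reads. Of 5953 transcripts, 5929 were named by accession and 24 by locus tag, while 17 and 10 absent from the shock or untreated table were set to 0. Size factors (median of ratios) were computed over the 4 libraries, and genes with a mean of at least 10 were tested on log2(normalized reads + 1) with limma 3.58.1 (eBayes, trend, R 4.3.3). A fold change on this scale understates the change of low genes. edgeR 4.0.16, DESeq2 1.42.0, fits over 6 and 8 libraries, other scalings, pseudocounts and filters, a replicate block and leaving out each library were alternatives. Fits were also run on simulated data in which every gene had the same dispersion, which does not show how they perform on these libraries. Copies of at least 95% identity over at least 50% of a transcript (291) or overlaps of at least 50 bases (177) make a gene uncertain.

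The comparison, the 45 gene lists and the named genes were chosen with earlier results of these data known. Named genes were drawn from mating and strain markers, up to 3 members per list and the 12 largest changes in each direction. Those changes had no overlap between groups and a mean of at least 50. Not all are described: among those left out, RSB1 and YJR115W rose by 2.18 (SE 0.46) and 1.88 (SE 0.29). With 2 called, the largest changes were taken irrespective of the call or from the 8-library calls. Other genes were chosen after their values were seen.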

Additional observations from a re-analysis of the deposited data

How the results depend on the processing

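The number of genes higher in shocked than in untreated was 2 in the 4-library limma fit and 0 with TMM scaling, with a mean of at least 50 reads or with edgeR, 97 with DESeq2, 32 over 6 libraries and 167 over 8, and the number lower was 0, 195 with DESeq2, 32 over 6 and 235 over 8. Leaving out 1 library gave 0 to 89 higher and 0 to 88 lower, where a lone library is assumed to vary like the other group. Over 8 libraries, leaving out 1 gave 3 to 333 higher and 9 to 475 lower, no intensity trend gave 87 and 109, and scaling by total reads gave 239 and 84. Over 6 libraries, leaving out 1 gave 426 to 1205 and 696 to 1146 for unshocked against untreated, and 349 to 997 and 189 to 1003 for shocked against unshocked. The settings of the 6- and 8-library fits were chosen after seeing the data. The cause of these differences was not tested, except that the fits over more libraries and those with a library left out differ in the libraries they use.

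Same-numbered untreated and shocked libraries deviated from their group means with a correlation of 0.29 across genes, and with 2 numbers they share only a number. The replicate block gave 239 higher and 283 lower over 4 libraries and 314 and 385 over 8.

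AGA1 kept a log2 fold change of 1.35 to 1.56 and passed in 10 of 16 alternatives, and COS12 2.25 to 2.51 in 11 of 16. Of 133 named genes tested, 2 changed sign under some alternative. Leaving out 1 library gave HIS3 -0.034 to 0.10, negative without untreated replicate 1 (-0.026) or shocked replicate 2, and STE3 -0.59 to 0.16, positive without shocked replicate 1. At 14108937 to 18360737 reads, depth limits mainly genes such as PRM6, LEU2 and MET17.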
